A study of Mus musculus with 2931 samples.

Results

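Ntrk2 is the mouse gene for TrkB, a receptor tyrosine kinase that binds brain-derived neurotrophic factor (BDNF) and neurotrophin-4. It is 1 of the 18072 genes of the count table and was chosen by its level and its share of cells with a read, which differed between subtypes of lung endothelial cells (EC, the cells that line vessels), over days and under hyperoxia. Its levels in those contrasts are therefore described here without a test. RNA was read from 2931 single EC of the distal lung of 10 mice, sorted into plates and made into Tn5 transposase libraries without molecular identifiers. The groups were normal-air mice of E18.5 (embryonic day) and of P1, P7 and P21 (postnatal days), plus P7 mice after hyperoxia, which is breathing of raised oxygen; its dose and length, the strain and any genotype are not given in the sources used here. Both sexes were present once per group, so a mean ± SD below has n = 2, and whether a mouse name is 1 animal or a pool is not stated.

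Neurotrophins are secreted growth factors made as precursors that proteases such as furin and plasmin cut to the mature form. Mature BDNF makes TrkB dimerise and phosphorylate itself, and adaptors of the Shc and Frs2 families then pass the signal to the Ras-ERK and phosphatidylinositol 3-kinase pathways, while phospholipase C gamma 1 binds a separate site; Ntrk2 also makes truncated forms without the kinase. Outside neurons, BDNF and TrkB are known in endothelium, where they can favour survival and growth of vessels.

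In mouse assembly GRCm38 with GENCODE M21, Ntrk2 (ENSMUSG00000055254) is on the plus strand of chromosome 13, from 58806569 to 59133970, and spans 327402 bases. Of its 10 annotated transcripts 7 are protein-coding. Ntrk2-201 and Ntrk2-207 have 18 exons and code for 821 residues, and the other 5 code for 466 to 492 residues. The deposited counts are per gene, so reads of the long and short forms cannot be told apart. The annotation places 4 other genes inside the span, of which Gm47423 and 4930415C11Rik are typed antisense. None of the 4 was in the count table, and whether the counting used strand is not stated.

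The authors' subtype labels were used as they stand. Early and Late Car4- capillaries, 2 labels for the general capillary EC, were also summed as 1 class of 1463 cells. Car4, the carbonic anhydrase that marks the other capillary type (aerocytes), had a read in 98.2% of Car4+ cells, 28.3% of Early and 35.2% of Late Car4- cells. Plvap, a diaphragm protein of other EC, had one in 12.4% of Car4+ cells and 96.2% of Early Car4- cells. Pecam1, which encodes the sorting antigen CD31, had one in at least 87.0% of the cells of every label. A cell had 42095 to 2967985 reads, and the mice differed in median depth from 188609.5 reads per cell (P7 male) to 928377 (P7 female). Of the cells, 2694 came from a sort for CD31, 224 from a gate named mesench and 13 from a CD45 gate. The sexes by label matched the X-inactivation RNA Xist, which was higher in females by 13.10 on the log2 scale (adjusted p = 1.14e-06, edgeR, Car4- capillaries).

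Ntrk2 reads were concentrated in Car4- capillaries. That class held 66308 of the 76214 Ntrk2 reads (87.0%) and 44.3% of all reads. It held 342 of the 449 cells with an Ntrk2 read. The 44.3% includes the E18.5 mice, where only 13 cells had these labels. Within each mouse from P1 on, 76.7% to 99.9% of the Ntrk2 reads lay in Car4- cells. Their part of all reads was smallest in the P1 male mouse (99176628 of 221962106) and largest in the P21 female (195034861 of 263769945).

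**Figure D1:**
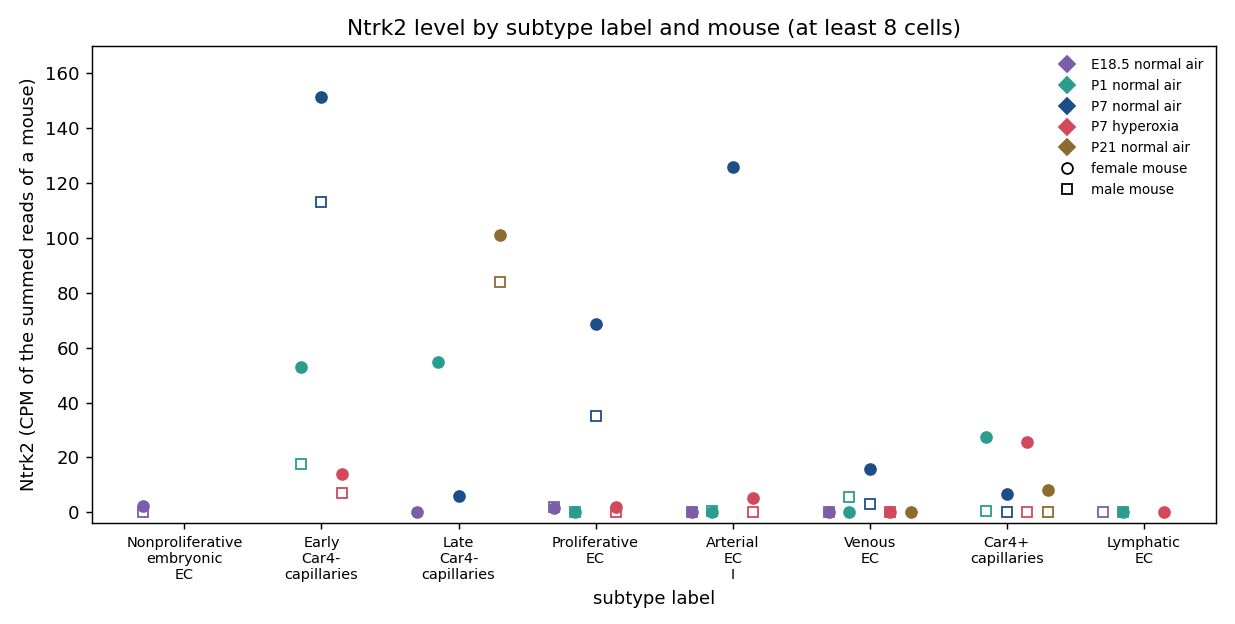
Ntrk2 level by subtype label, in reads per 1000000 (CPM) of the reads summed over the cells of 1 label in 1 mouse, on a linear axis; each point is a sum of at least 8 cells, filled circles are female and open squares male mice, and colours are the groups. The highest points are Early Car4- capillaries at P7 in normal air (151 and 113 CPM), the P7 female arterial EC I (126 CPM) and Late Car4- capillaries at P21 (101 and 83.9 CPM), while the red hyperoxia points lie at or under 25.6 CPM.

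In Car4- capillaries, Ntrk2 was low at P1, highest at P7 and still high at P21. At P1 the female mouse had 53.0 CPM and the male 17.4 CPM. At P7 in normal air they had 133 and 111 CPM, and at P21 104 and 82.8 CPM. The P1 mice lay below all 4 later normal-air mice, and both P21 mice lay below both P7 mice. The group means were 35.2 ± 25.2 CPM at P1, 122 ± 15.7 CPM at P7 and 93.2 ± 14.8 CPM at P21 (SD, n = 2). The P7 mean was 3.47-fold that of P1, with 2.09-fold between the nearest mice and 7.67-fold between the farthest. The P21 mean was 0.764 of that of P7, and the nearest pair of mice differed by 1.07-fold over all gates. In CD31-gate cells alone the gap was wider, with 128 and 142 CPM at P7 and 91.3 and 77.4 CPM at P21, female first.

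The share of Car4- cells with an Ntrk2 read was higher in both P7 mice than in both P1 mice, as the level was. At P1 a read was found in 36 of 181 female cells (19.9%, 95% Clopper-Pearson interval 14.3 to 26.5%) and 15 of 122 male cells (12.3%, 7.05 to 19.5%). At P7 the shares were 64 of 206 female cells (31.1%, 24.8 to 37.9%) and 62 of 116 male cells (53.4%, 44.0 to 62.8%). The P7 male mouse thus had the higher share and, over all gates, the lower CPM, at a median of 188388.5 reads per Car4- cell against 860010 in the P7 female mouse. In CD31-gate cells alone its level was also the higher (142 against 128 CPM), as was the mean of the CPM of its single cells over all gates (148 against 121 CPM). At P21 the shares were 90 of 272 female cells (33.1%, 27.5 to 39.0%) and 58 of 268 male cells (21.6%, 16.9 to 27.1%), which overlap those of P7. With each cell thinned to 50000 reads the shares were 24.8% and 50.4% at P7 and 24.6% and 16.04% at P21, female first. Intervals of this kind treat the cells of 1 mouse as independent draws and leave out the spread between mice. PCR copies of 1 molecule are counted as separate reads, which bears on CPM.

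In Car4- capillaries Ntrk2 was read in a minority of cells in every mouse but the P7 male. Among Car4- cells with a read, the median was 299 CPM in the P7 female mouse and 165 CPM in the P7 male, with single cells reaching 2242 and 1803 CPM. At P21 the medians were 150 and 168 CPM, and the highest cells had 3453 and 3808 CPM. At P1 they were 176 and 25.3 CPM. The highest single cells at P21 were above those at P7. A maximum tends to grow with the number of cells, here 272 and 268 at P21 and 206 and 116 at P7. The P1 male mouse had few cells above 100 CPM in the plot of single cells. With 1 cell per well, a cell without a read is not shown to lack the RNA.

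**Figure D2:**
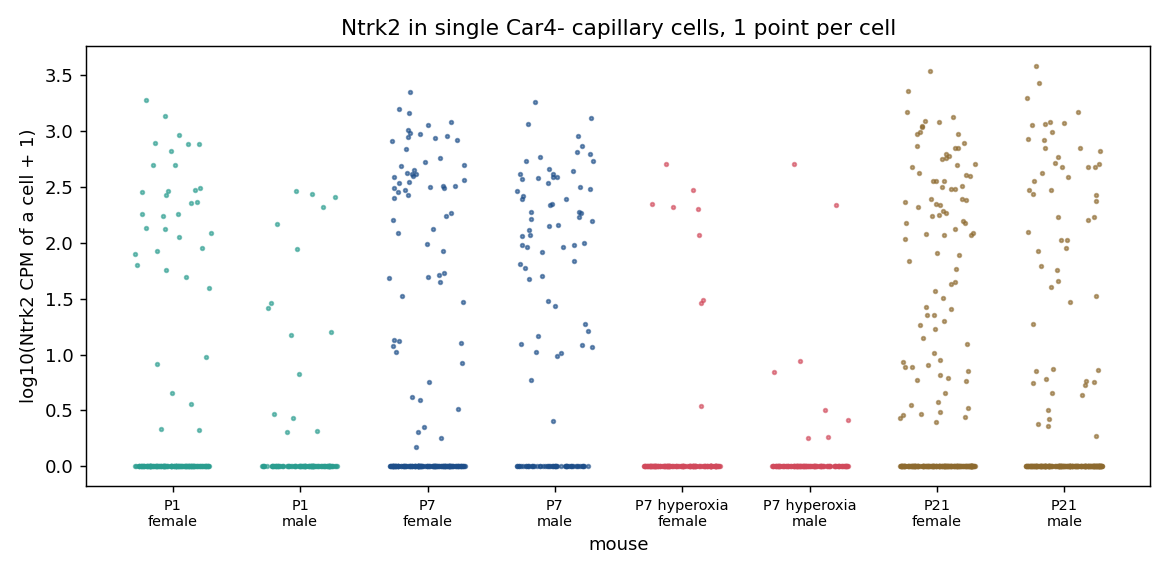
Ntrk2 in every Car4- capillary cell, 1 point per cell, as log10(CPM + 1) of that cell against the mouse; horizontal position within a mouse is random. In the P7 and P21 normal-air mice many cells lie between 1 and 3.5, and in the P7 hyperoxia mice 9 and 8 cells lie above 0.

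The Early and Late labels changed places between P7 and P21, and in normal air at those ages Ntrk2 was high in whichever made up the class. At P7 the female mouse had 162 Early cells with 151 CPM (61 with a read) and the male 114 Early cells with 113 CPM (62 with a read). At P21 the female mouse had 268 Late cells with 101 CPM and the male 265 Late cells with 83.9 CPM. The P7 female mouse was the only normal-air mouse at P7 with enough Late cells for a level, and its 44 Late cells had 6.05 CPM, with a read in 3. Those 44 cells had a median of 478914 reads, against 950650 in the Early cells of that mouse. At the thinned depth 2.27% of the Late and 30.9% of the Early cells of that mouse had a read. The 21 Late cells of the P1 female mouse had 55.0 CPM from 2 positive cells, close to the 52.9 CPM of its 160 Early cells. Early cells also made up the class at P1 and under hyperoxia, at lower levels. They numbered 160 and 120 at P1, with 52.9 and 17.5 CPM, and 151 and 126 under hyperoxia, with 14.1 and 7.10 CPM. The label Late went with a low level in 1 mouse at P7 and with a high level in both mice at P21.

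Before birth Ntrk2 was near 0 in nonproliferative embryonic EC, the label with the most sorted cells at that age. In nonproliferative embryonic EC at E18.5 the female mouse had 2.31 CPM (8 of 134 cells with a read) and the male 0.270 CPM (6 of 168 cells). The mean of Car4- capillaries at P1 was 27.3-fold that of these embryonic EC at E18.5, with 7.52-fold between the nearest and 196-fold between the farthest mice. Without the E18.5 female mouse the log2 ratio was 7.03 in place of 4.77. A comparison across labels at different ages joins a change of label with a change of age. The 13 cells of the E18.5 female mouse labelled Car4- capillaries had 0 Ntrk2 reads, where 3 reads would be 0.472 CPM, and their median of 1151 detected genes was lower than that of the Car4- cells of any other mouse.

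**Figure D3:**
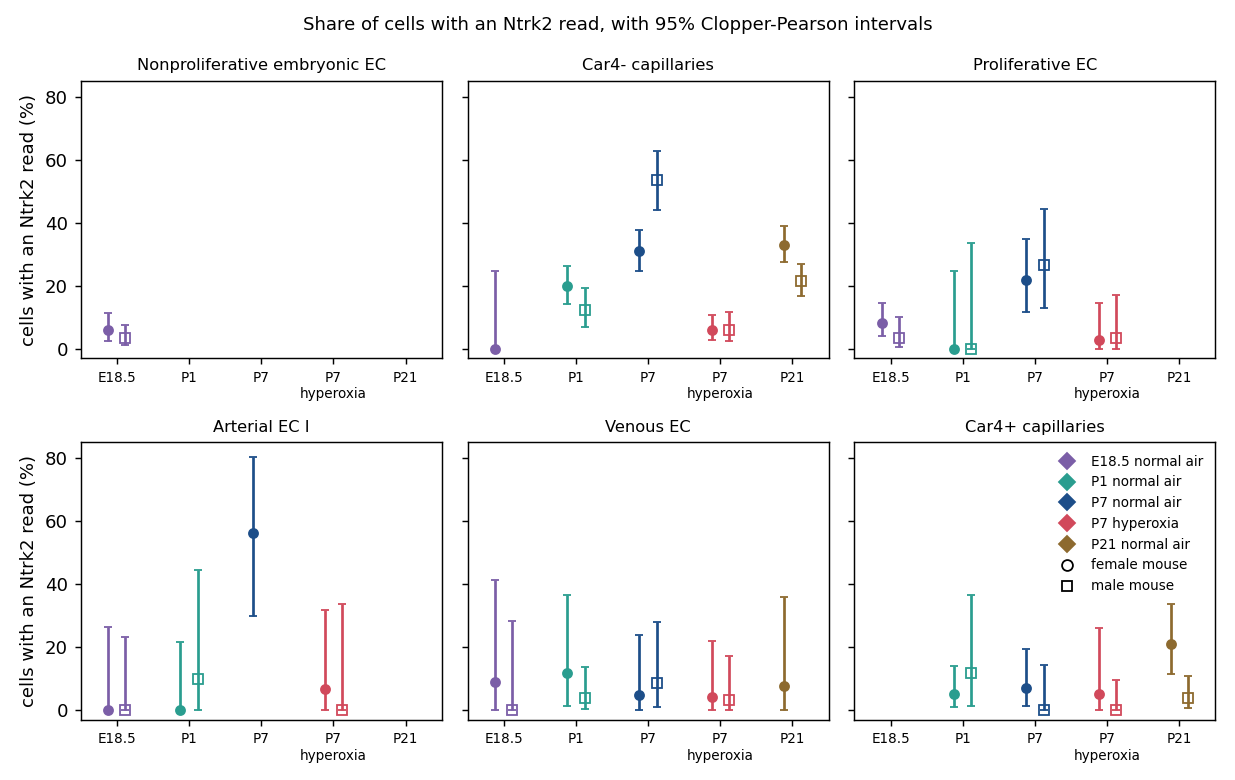
Share of cells with at least 1 Ntrk2 read in percent, by group (horizontal axis) and class (panels), for mice with at least 8 cells of the class; filled circles are female and open squares male mice, and bars are 95% Clopper-Pearson intervals. In Car4- capillaries the hyperoxia mice lie at 5.88% and 6.06%, below the P7 normal-air mice at 31.1% and 53.4%, and proliferative EC show 21.8% and 26.5% at P7 against 2.78% and 3.33% under hyperoxia.

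Under hyperoxia Ntrk2 in Car4- capillaries lay far below the P7 normal-air level. The hyperoxia mice had 14.1 CPM (female) and 6.93 CPM (male), against 133 and 111 CPM in normal air. A read was found in 9 of 153 female cells (5.88%, 2.72 to 10.9%) and 8 of 132 male cells (6.06%, 2.65 to 11.6%). Neither level nor share overlapped between the 2 conditions. The mean of 10.5 ± 5.04 CPM was 11.6-fold lower than in normal air, with 7.89-fold between the nearest and 19.2-fold between the farthest mice. It was also below both P1 mice.

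The reads that were left under hyperoxia came from few cells. In the male hyperoxia mouse 1 cell held 84.3% of the 675 Car4- reads, and in the female 1 cell held 42.8% of 1340. Cells with at least 10 reads numbered 7 in the female and 2 in the male mouse, against 53 and 47 in normal air. Without the highest cell of each mouse the log2 ratio of hyperoxia to normal air was -4.56 in place of -3.54. In the male mice, whose CD31-gate cells of P7 in normal air and hyperoxia shared 1 sequencing run, the level was 142 CPM in normal air (111 cells) and 6.93 CPM under hyperoxia (132 cells). The female pair was sequenced in separate runs, so run and treatment cannot be told apart in that pair. At the thinned depth the shares were 5.23% and 2.27% under hyperoxia, against 24.8% and 50.4%.

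Markers of other cells in the Car4- sums were low, and some of them moved with the treatment. The summed level of 4 pericyte markers (Pdgfrb, Cspg4, Notch3, Cox4i2; pericytes are the mural cells of capillaries) was 18.51 and 16 CPM at P7 in normal air and 9.58 and 1.31 CPM under hyperoxia, with all 4 read in each mouse except Notch3, which was at 0 in the P7 male. In the P7 female mouse 20.3% of the cells with an Ntrk2 read and 10.6% of those without had a pericyte marker. In the P7 male these were 11.3% and 25.9%. At P1 and P21 the pericyte share was higher in cells with an Ntrk2 read (22.2% against 17.2%, 33.3% against 27.1%, 30% against 28.02%, 29.3% against 21.9%). Under hyperoxia, with 9 and 8 such cells, it was lower. Smooth muscle markers at P7 were in 17.2% against 8.45% (female) and 14.5% against 11.1% (male). Fibroblast markers were in 12.5% against 7.75% and 9.68% against 7.41%. For immune and glial markers the P7 mice differed in order. These shares were not tested. The 4 epithelial markers (Epcam, Sftpc, Ager, Nkx2-1) summed to 26.0 and 62.2 CPM in normal air and 94.6 and 152 CPM under hyperoxia, with Epcam at 0 in the P7 female, and Epcam and Nkx2-1 at 0 in the hyperoxia female mouse. The fibroblast sums also did not overlap (7.70 and 4.14 CPM against 8.43 and 11.8 CPM over 5 markers, with Dcn at 0 in the P7 male and the hyperoxia female). The sums of the 3 immune, 3 smooth muscle and 3 mesothelial markers overlapped, and the mesothelial one was at or under 0.441 CPM. 

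Endothelial marker lists also differed between the conditions. The 5 pan-endothelial markers summed to 6059 and 6191 CPM in normal air and 6156 and 7520 CPM under hyperoxia, which overlap. The 5 markers of Car4+ capillaries summed to 363 and 780 CPM against 818 and 890 CPM, and the 3 of Car4- capillaries (Plvap, Gpihbp1, Aplnr) to 3354 and 3398 CPM against 3627 and 4672 CPM. The 5 lymphatic markers summed to 87.4 and 179 CPM against 230.01 and 297 CPM, with Ccl21a at 0 in all 4 mice, and the 3 venous markers to 93.2 and 104 CPM against 114 and 136 CPM, with Slc6a2 at 0 in the P7 male. All 4 of these lists were higher under hyperoxia without overlap, an order that can arise by chance with so few mice. The arterial and proliferative marker lists are not reported here. The ribosomal RNA gene CT010467.1 took 11.4% and 7.85% of the Car4- reads in normal air and 6.66% and 4.22% under hyperoxia; with its reads left out of the totals the Ntrk2 log2 ratio was -3.60. The part of the marker levels in the Ntrk2 result was not tested. Over age, the Car4- pericyte sums of P1 (19.4 and 12.3 CPM) overlapped those of P7, and those of P21 (37.6 and 53.5 CPM) were higher; the epithelial sums were 74.9 and 89.2 CPM at P1 and 131 and 180 CPM at P21, both above P7. The share of CT010467.1 was 7.52% and 5.19% at P1 and 8.46% and 8.03% at P21, so both P1 mice lay below both P7 mice, as for Ntrk2.

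Proliferative EC, the cycling cells (Mki67, a cycling-cell protein, had a read in 94.1% of them), were like Car4- capillaries at P7. Their Ntrk2 was high in normal air and low under hyperoxia. At E18.5 they had 1.45 and 1.94 CPM (10 of 122 and 3 of 84 cells). At P1 no read was found in 13 and 9 cells, with upper Clopper-Pearson limits of 24.7% and 33.6% of cells with a read. At P7 in normal air the level was 68.6 CPM in the female mouse (12 of 55 cells) and 35.1 CPM in the male (9 of 34 cells). The P7 mean was 51.8 ± 23.7 CPM. No fold against P1 is given, because 1 cell with a read can hold far more than a few reads and the P1 cells were few. At P21 the label held 7 cells, all of the male mouse and too few for a level, with 1 read. Under hyperoxia the mice had 2.03 and 0.0440 CPM, each from 1 cell (of 36 and 30). The mean of 1.03 ± 1.40 CPM was 50.1-fold lower than in normal air, with 17.3-fold between the nearest and 1560-fold between the farthest mice, the lowest of which had 1 read. Without the hyperoxia female mouse the log2 ratio was -10.20 in place of -5.65. In the P7 female mouse 60.1% of the proliferative reads came from 1 cell, and in the male 16.6%. The pericyte sums of proliferative EC overlapped (10.1 and 172 CPM in normal air, 81.0 and 19.6 CPM under hyperoxia), and the immune sums did not (6.37 and 5.59 CPM against 19.7 and 9.19 CPM).

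Arterial EC I was the third label with Ntrk2 at P7, from few cells. In the P7 female mouse 9 of 16 cells had a read (56.3%, 29.9 to 80.2%), and the level was 126 CPM, of which 1 cell gave 75.3%. The P7 male mouse had 4 such cells, too few for a level, and 3 of them had a read, with 36 reads in all. Under hyperoxia 1 of 15 cells (5.04 CPM) and 0 of 9 cells had a read, the last with an upper Clopper-Pearson limit of 33.6%. At E18.5 none of 12 and 14 cells had a read, and at P1 0 of 15 and 1 of 10 (0.430 CPM). The 42 cells labelled arterial EC II, spread over the 10 mice, gave 33 reads in all, of which 31 came from 1 cell of the P7 male mouse.

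In the remaining labels Ntrk2 was near 0 or came from single cells. Car4+ capillaries had 27.5 and 0.373 CPM at P1, 6.85 and 0 CPM at P7, 25.6 and 0 CPM under hyperoxia, and 8.25 and 0.0940 CPM at P21, female first. The mice of every pair of these groups overlapped, so no direction over age or treatment is given. In the P1 female mouse 962 of 964 reads came from 1 cell of the CD45 gate, and its 58 CD31-gate cells had 0.0608 CPM; in the hyperoxia female mouse all 306 reads came from 1 cell. The P21 female mouse was the exception, with a read in 12 of 57 Car4+ cells (21.1%), of which 5 had at least 10 reads. In venous EC all 411 reads of the P7 female mouse (15.9 CPM) and 326 of the 327 of the P1 male mouse (5.56 CPM) were from 1 cell each, and the P7 male mouse had 3.16 CPM from 2 cells. The other venous sums, those of both hyperoxia mice included, were at or under 0.183 CPM. Lymphatic EC, whose regulator Prox1 had a read in 97.6% of 82 cells, gave 10 Ntrk2 reads in 2 cells, and proliferative venous EC gave 1 read in 10 cells.

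Sex and sort gate were not used to choose the gene, so Ntrk2 was tested on both in Car4- capillaries with edgeR's quasi-likelihood test on the summed counts, with Benjamini-Hochberg adjustment over all genes tested. The female mouse had the higher CPM in 4 of 4 groups over all gates, and in 3 of 4 with CD31-gate cells alone or by the mean of the CPM of single cells, where P7 in normal air was the exception. The fitted difference, female over male with the group as a term, was 0.68 ± 0.31 (SE) on the log2 scale, with an unadjusted p of 0.0474 and an adjusted p of 0.849 by edgeR, and did not pass the threshold of 0.05; 4 of 14660 genes did (0.0273%). The adjusted p was 0.323 by DESeq2 and lay between 0.323 and 1 over all alternatives run. At P21 the mesench-gate cells of the female mouse had 170 CPM and its CD31-gate cells 91.3 CPM, and those of the male 90.9 and 77.4 CPM. This difference of 0.81 ± 0.61 (SE, log2, mesench over CD31, higher in 2 of 2 mice) had an adjusted p of 0.964 by edgeR, where 0.00807% of the genes tested were called; by the other settings the adjusted p lay between 0.576 and 1. The gates of a mouse were sequenced in different runs, so gate and run cannot be told apart.

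Ntrk3 and Ngfr, other receptors of neurotrophins, had few reads in these cells. Ntrk3, the neurotrophin-3 receptor TrkC, had 842 reads in 201 cells, and its Car4- sums from P1 on were at or under 0.479 CPM. Ngfr, the p75 receptor that binds all neurotrophins, had 86 reads in 20 cells. Among sums of at least 8 cells, neither of these reached 10 CPM, which Ntrk2 did. Of the sortilin family, which binds pro-neurotrophins and sorts proteins inside the cell, Sort1 had 43263 reads in 492 cells, Sorcs2 1307 in 70, Sorl1 1030 in 59, Sorcs1 252 in 36 and Sorcs3 40 in 31.

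Sort1 did not follow Ntrk2. Its Car4- sums at P7 were 18.8 CPM (female) and 2.39 CPM (male) in normal air, and 28.6 and 39.1 CPM under hyperoxia. Both hyperoxia mice were higher, but the difference of 1.63 ± 1.05 (SE, log2) had an adjusted p of 0.965 by edgeR. In Car4+ capillaries, where no Ntrk2 sum was above 27.5 CPM, Sort1 had 52.0 and 48.0 CPM at P7 and 38.3 and 36.2 CPM at P21.

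Ligand RNA was rare, and Bdnf was low in Car4- capillaries, the class with most Ntrk2 reads. Whether single cells held reads of both a ligand and Ntrk2 was not tested. Bdnf had 6891 reads in 90 cells, Ntf3 (neurotrophin-3) 2757 in 18 and Ntf5 (neurotrophin-4) 44 in 21. In Car4- capillaries Bdnf was at or under 1.29 CPM in every mouse. In venous EC at P7 it had 0.347 CPM (1 of 21 cells) and 5.21 CPM (2 of 23 cells) in normal air. Under hyperoxia it had 29.3 CPM (5 of 23 cells) and 114 CPM (8 of 30 cells). Both hyperoxia mice were higher than both normal-air mice, yet the fitted difference of 4.81 ± 2.39 (SE, log2) had an unadjusted p of 0.0665 and an adjusted p of 1 by edgeR. Venous Bdnf also reached 22.9 CPM in the P1 male and 14.7 CPM in the E18.5 male mouse, against 0.0914 and 0.585 CPM in the female mice of those groups. Venous Ntf3 was 6.09 and 2.79 CPM at P7 in normal air and 14.3 and 13.1 CPM under hyperoxia, and 88.3 CPM in the E18.5 male mouse from 1 cell.

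**Figure D4:**
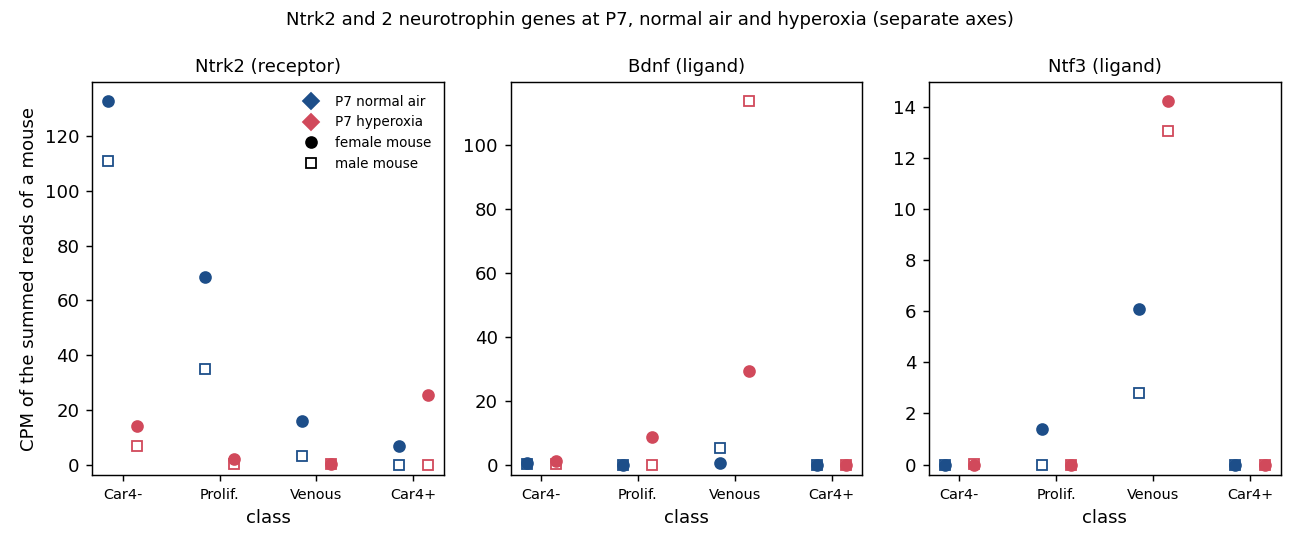
Levels of Ntrk2, Bdnf and Ntf3 at P7 in 4 classes, in CPM of the summed reads of a mouse, with a separate linear axis per gene; blue is normal air, red hyperoxia, filled circles are female and open squares male mice. Ntrk2 is high in the blue Car4- and proliferative points (133, 111, 68.6 and 35.1 CPM), while Bdnf is highest in the red venous points (29.3 and 114 CPM).

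The genes around the receptor were read as a list of 64, of which 61 were in the count table; Ntrk2 was not among them. For Car4- capillaries at P7 against P1, 0 of the 51 list genes tested passed an adjusted p of 0.05 in edgeR, where 0% of all 14660 genes did. The list median was -0.03 on the log2 scale and that of all genes -0.04, with 5 list genes and 1663 of all genes at an unadjusted p under 0.05. Plat, tissue plasminogen activator, which makes plasmin, had 31.3 and 30.9 CPM at P1 and 194 and 141 CPM at P7 (2.32 ± 0.53 SE, log2, adjusted p = 0.379, edgeR). Spry2, a feedback inhibitor of ERK signalling, had 99.1 and 150 CPM at P1 and 15.3 and 38.4 CPM at P7 (-2.37 ± 0.61 SE, log2, adjusted p = 0.385, edgeR). The mice of P1 and P7 did not overlap for either gene. DESeq2 called both and no other of 61 list genes, among 448 calls over all 17830 genes. The adaptor genes Shc1 (1.43 ± 0.51 SE, log2) and Crkl (2.10 ± 0.79 SE, log2) had adjusted p-values of 0.385 and 0.403 by edgeR.

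At P21 against P7, where 0.266% of all genes were called, again 0 of 51 list genes passed in Car4- capillaries. At an unadjusted p under 0.05 there were 8 list genes and 1542 of all 14660 genes (edgeR). The list median was 0.00 and that of all genes 0.06. Egr1, an immediate early gene that ERK signalling and cell handling can both induce, had 240 and 255 CPM at P7 and 964 and 982 CPM at P21 (2.10 ± 0.48 SE, log2, adjusted p = 0.129, edgeR). It passed the test with no filter beyond 1 read, where 77 of 17830 genes were called. DESeq2 called it with Sh2b2 and Etv4 (3 of 61 list genes, beside 807 of 17830 genes). Plat had 37.1 and 85.7 CPM at P21 (-1.30 ± 0.51 SE, log2, adjusted p = 0.423, edgeR). Pik3r1, a phosphatidylinositol 3-kinase subunit, and Maged1, a p75 partner, had log2 differences of 0.92 ± 0.39 and -1.00 ± 0.43 (SE), with adjusted p-values of 0.440 and 0.444 by edgeR.

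Under hyperoxia at P7, where 0.0136% of all genes were called, 0 of 51 list genes passed in Car4- capillaries by edgeR and 0 by DESeq2. At an unadjusted p under 0.05 there was 1 list gene, of 809 genes in all. The list median was -0.14 and that of all genes -0.01 on the log2 scale. That gene was Grb2, the adaptor that couples receptor kinases to Ras, with 122 and 110 CPM in normal air and 82.0 and 55.0 CPM under hyperoxia (-0.79 ± 0.37 SE, log2, adjusted p = 0.887, edgeR). Spry2 had 29.9 and 91.6 CPM under hyperoxia, which overlap its normal-air levels of 15.3 and 38.4 CPM. Frs2, the docking protein of Trk receptors, had 5.26 and 27.7 CPM in normal air and 6.28 and 1.79 CPM under hyperoxia (adjusted p = 0.894, edgeR). The comparisons of P7 with P1, with P21 and with hyperoxia share the 2 P7 normal-air mice.

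In the other classes edgeR called 0 list genes in each of 10 comparisons, with 1 to 8 of 45 to 52 list genes at an unadjusted p under 0.05. In Car4+ capillaries these were 5, 3 and 3 of 45 (P7 against P1, P21 against P7, hyperoxia). The counts over all 12284 genes were 772, 644 and 757 in that order. For the remaining comparisons the counts over all genes are not given here, so their list counts are not read as a result. For Car4- capillaries at P1 against embryonic EC at E18.5, where 0.494% of all genes were called, the smallest unadjusted p belonged to Spry2 (30.3 and 66.7 CPM in embryonic EC, 99.1 and 150 CPM in Car4- capillaries, adjusted p = 0.476, edgeR). In proliferative EC at P7 against P1 (0% of all genes called), Plat had 0 and 1.79 CPM at P1 and 71.8 and 68.9 CPM at P7 (adjusted p = 0.417, edgeR). In both proliferative EC and Car4- capillaries both P7 mice thus lay above both P1 mice for Plat, but neither difference passed the test. Plat was named for its small p in these comparisons, and its hyperoxia level is not reported here. At P21 in Car4- capillaries the female mouse had the lower Plat and the higher Ntrk2 of the pair. Furin, a protease that cuts pro-neurotrophins, had 115 and 158 CPM at P1 and 19.6 and 44.8 CPM at P7 in proliferative EC (adjusted p = 0.490, edgeR). In venous EC under hyperoxia (0% called), Egr1 had 827 and 835 CPM in normal air and 294 and 238 CPM under hyperoxia (adjusted p = 1, edgeR). In venous EC at P1 against E18.5 (0.0162% called), Pik3r1 had 0.878 and 0 CPM before and 60.8 and 33.6 CPM after birth (adjusted p = 0.251, edgeR). In Car4+ capillaries at P21 against P7 (0.00814% called), Egr1 had 659 and 347 CPM at P7 and 1411 and 1210 CPM at P21 (adjusted p = 0.858, edgeR). In the other 5 comparisons 0% of all genes were called.

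Genes with a pattern like that of Ntrk2 were named by Pearson's r of log2(CPM + 1), with no p. Over the 50 sums of a label and a mouse, which share libraries and depth within a mouse, the highest of 8875 genes were Adam23 (0.688), Rab6b (0.667), Glp1r (0.636), Ppp1r2 (0.635), Sema3c (0.615), Dr1 (0.593), Tcf7 (0.590) and Hpgd (0.582). Glp1r encodes the glucagon-like peptide 1 receptor, Sema3c a secreted semaphorin and Hpgd the enzyme that breaks down prostaglandins. Hpgd in Car4- capillaries had 808 and 285 CPM at P1, 2925 and 2928 CPM at P7, 2251 and 1142 CPM under hyperoxia, and 2950 and 4035 CPM at P21. By Spearman's rho 3 of the 8 genes were among the highest 8, and by CD31-gate cells alone 5 were.

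Over the 8 Car4- sums from P1 on, the highest of 8452 genes were Calml4 (0.955), Slc26a10 (0.948), Tmeff1 (0.946), Slc44a2 (0.944), Pptc7 (0.942), H2-Q7 (0.936), Ets1 (0.933) and P4ha1 (0.932). With 8 sums many genes reach such values, and 2 of the 8 genes were among the highest 8 by Spearman's rho and 3 by CD31-gate cells alone, where Slc44a2 ranked 163 and Pptc7 209. The ribosomal RNA gene CT010467.1 ranked 15 (0.906), and its part in these values was not tested. Calml4, a calmodulin-like protein, had 11.8 and 4.79 CPM at P1, 27.8 and 18.7 CPM at P7, 1.71 and 0.0308 CPM under hyperoxia, and 13.3 and 9.10 CPM at P21. Ets1, an endothelial transcription factor, had 527 and 452 CPM at P1, 804 and 544 CPM at P7, 344 and 283 CPM under hyperoxia, and 578 and 618 CPM at P21. H2-Q7, a class I histocompatibility gene, had 38.5 and 33.7 CPM at P1, 169 and 151 CPM at P7, 17.2 and 10.01 CPM under hyperoxia, and 269 and 244 CPM at P21; it has near-identical copies, so its reads may be split among them. These genes were picked for following Ntrk2, so low hyperoxia values among them are part of the choice. Both hyperoxia mice were below every other mouse for these 3 genes and Slc26a10, while for Tmeff1, Slc44a2, Pptc7 and P4ha1 the hyperoxia female mouse was above the P1 male mouse.

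From cell to cell the likeness was weak. Over the Car4- cells of each P7 normal-air mouse (206 and 116 cells), Spearman's rho with Ntrk2 was highest for Slc6a6, a taurine transporter (0.396 and 0.338), and Calcrl, the receptor that binds adrenomedullin (0.406 and 0.324). At P21 Slc6a6 again had the highest value (0.300 and 0.249 over 272 and 268 cells). In the hyperoxia mice, where 9 and 8 cells had an Ntrk2 read, the highest was Cd9 (0.222 and 0.211), followed by Rrp1, Rnf181, Ppdpf, Hyal2, Atg12, Ndufaf4 and Ccz1. In counts this sparse such values are no finding about those genes.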

How the data were processed

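Whole read counts per gene and cell were deposited by the authors, with no normalization. Per the submitters' processing notes, STAR 2.5.2b, HTSeq 0.10 and the build GRCh38 were used; GRCh38 is a human build while the cells are from mouse, so the positions given are those of GENCODE M21 (GRCm38), where 18017 of the 18072 symbols were found. The reads of all cells of 1 label or class in 1 mouse were added up. A level needed at least 8 cells, and CPM are reads per 1000000 reads of the sum. A fold or log2 ratio of Ntrk2 is that of the mean CPM of both mice. Other genes, sex and gate were tested with edgeR 4.0.16 (TMM, filterByExpr, quasi-likelihood) on all usable groups of a class; p-values were adjusted over all genes tested and called under 0.05. These p-values set a difference against the spread between mice. For the gate the mouse was a term, so the spread is what remains between the gate sums of the P21 mice. The members and lists were chosen with earlier results of these data known.

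The text names the ligands and receptors always (a few genes of the lists are not reported here), and of the other list genes those called and up to 4 per comparison with the smallest p among those with at least 10 CPM in a group. Of these, the ones printed for classes other than Car4- capillaries, and the 4 like genes whose levels are given, were picked from that set after values were seen. Likeness used genes of at least 10 CPM on average, or, by cell, genes read in at least 25% of the cells of both mice. Rtn4r, Plg and Mmp7 were not in the count table. For some levels of 0 the floor of 3 reads in CPM is given, and for some shares of 0 cells the upper 95% Clopper-Pearson limit. The other zeros are printed without a limit. Alternatives were DESeq2 1.42.0, RLE, no filter on low counts, CD31-gate cells alone, cells thinned to 50000 reads (11 shallower cells left out), means over cells, sex as a term, and each mouse left out. Tests were tried on simulated counts first. Python 3.11.15 and R 4.3.3 were used.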

Additional observations from a re-analysis of the deposited data

How the results depend on the processing

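With 2 mice per group, few cells with a read and unequal depth, small differences in Ntrk2 were not detectable, and low levels rest on single cells. In Car4- capillaries the log2 ratios kept their direction under every alternative run: 1.20 to 2.81 for P7 against P1, -0.56 to -0.23 for P21 against P7, and -4.14 to -3.12 for hyperoxia against normal air with each mouse left out. The P1 against embryonic value ranged from 3.75 to 7.03, with 7.03 without the E18.5 female mouse. Without the highest cell of each mouse the hyperoxia value was -4.56. In proliferative EC the hyperoxia value ranged from -10.20 (without the hyperoxia female mouse) to -4.68. In Car4+ capillaries the sign turned. For P7 against P1 it went from -2.03 to 4.08 with CD31-gate cells, to 1.68 without the highest cells and to 3.20 without the P1 female mouse (range with each mouse left out -3.01 to 3.20). For P21 against P7 it went from 0.29 to -5.19 without the P21 female mouse and to -0.71 without the P7 male mouse (range -5.19 to 1.27). The cause was not tested, apart from the single cells named above. Totals without CT010467.1 and the Early label alone were chosen after seeing the data and changed no direction.

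The 0 list genes called by edgeR became other counts with DESeq2: 2, 3 and 0 in Car4- capillaries (P7 against P1, P21 against P7, hyperoxia), 1, 2 and 3 in Car4+ capillaries in that order, 1, 4 and 0 in proliferative EC (P1 against E18.5, P7 against P1, hyperoxia), 3, 0 and 0 in venous EC in that order, and 1 at P1 against embryonic EC. With no filter on low counts they were 1 (Car4- P21 against P7), 1 (Car4+ hyperoxia), 1 and 2 (proliferative P1 against E18.5 and P7 against P1) and 2 (venous P1 against E18.5). With mice left out they were 0 to 1, 0 to 2, 0 to 5 and 0 to 2 for Car4- P21 against P7, the same proliferative pair and venous P1 against E18.5, and 0 in the other 9 comparisons. The 5 calls came without the P1 female mouse. Genes called over all genes numbered 448, 807 and 229 with DESeq2 against 0, 39 and 2 with edgeR in Car4- capillaries, 317, 283 and 368 against 0, 1 and 0 in Car4+ capillaries, 634, 800 and 161 against 0 in proliferative EC, 789, 131 and 160 against 2, 0 and 0 in venous EC, and 639 against 74 at P1 against embryonic EC. In proliferative EC edgeR made 924 and 1207 calls (P1 against E18.5, P7 against P1) when the P1 female mouse was left out, and 666 without the E18.5 female mouse in venous EC (P1 against E18.5). With sex as a term (replicate block) the list counts were 0 in all 13 comparisons; mouse names are not shared between groups, so sex is not a pairing. The sex difference of Ntrk2 ranged from 0.49 to 0.86 with each mouse left out.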
